A study of Mus musculus with 78 samples.

Results

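Interferon-stimulated genes were followed in mouse flank tissue on 78 Affymetrix whole-genome expression arrays. The set is a list of 40 genes chosen by name, with earlier results of these data known. A gene was measured when at least 1 probe set carried its symbol and no other, and it was read from its brightest probe set. By this rule 38 of the 40 genes were measured. Isg15 was represented by a probe set that carries 2 symbols, and Ifi44 by no listed probe set, so both were not analysed here. Mx2 was measured but reached the filter level (a signal of 331, or 8.44 as log2(signal + 16)) on 0 of 78 arrays and was not tested. The remaining 37 passed the filter and were tested among 14718 genes.

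The mice were female athymic nude animals of the strain Crl:NU(NCr)-Foxn1nu, aged 4 to 6 weeks, which lack thymus-derived T cells. An adenovirus carrying VEGF-A164 (Ad-VEGF-A164) was given intradermally into the flank at 5e+08 PFU, and the ears of these animals were injected as well. One group was control at day 0. At each of days 5, 20 and 60 there was an untreated group, a G6 group and a DC101 group, with 8 arrays everywhere but 6 for DC101 at day 60. DC101, a rat antibody to mouse VEGFR2, was given intraperitoneally at 20 mg/kg, and G6 at 10 mg/kg. The submitters count both as antibodies to VEGF receptors and do not name a target for G6 alone. No group received a virus without VEGF-A164, so the effect of the virus and that of VEGF-A164 cannot be told apart. The labels do not say that control flank was left uninjected, nor whether a day counts treatment or harvest. They also do not tie arrays to animals, while the design speaks of at least 5 per group, so an animal may have given several arrays, in which case p-values come out too small.

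Interferons are secreted when cells sense viral or misplaced nucleic acid. Type I interferon signals through its receptor to a complex that contains STAT2 and IRF9 and binds the interferon-stimulated response element, and interferon gamma signals through its own receptor to factors that bind the gamma-activated site. The induced genes include sensors that feed the loop, antiviral effectors, guanylate-binding and immunity-related GTPases, the immunoproteasome and peptide transporter, and the chemokines Cxcl9 and Cxcl10 that attract T and NK cells. In skin, macrophages, dendritic cells, endothelial cells and keratinocytes can all express these genes.

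The 250 bases before the annotated start were searched for these elements because members that move together may carry them. The response element core was searched as GAAANNGAA and the gamma-activated site as TTCNNNGAA, on both strands, in RefSeq promoters of build GRCm38.p6. A promoter was found for 32 of the 40 genes. The core was in 16 of these 32 (50%), against 8.18% of 27025 genes, and the gamma-activated site in 7 of 32 (21.9%), against 8.13%. All 4 GTPase genes and both chemokine genes held the core, and none of the 3 antigen-processing genes did. Matches can overlap, as in Ifit1, and a match is a description, not a bound site. The 5 promoters below are shown 5′ to 3′ on the gene's strand, with matches in capitals. Rsad2 and Cxcl9 had the largest difference at day 5 among the antiviral and chemokine members that held a match. Psmb8, not called at day 5 (-0.14), was the 1 antigen-processing member with a match. Ifit1, which held 3 matches, and Ifi44l, which had the largest fall with G6 at day 60, were chosen after their values were seen. They lie at chr12:26456453-26456702 (Rsad2, minus strand), chr17:34197945-34198194 (Psmb8, plus), chr5:92328080-92328329 (Cxcl9, minus), chr19:34640639-34640888 (Ifit1, plus) and chr3:151762892-151763141 (Ifi44l, minus).
Rsad2: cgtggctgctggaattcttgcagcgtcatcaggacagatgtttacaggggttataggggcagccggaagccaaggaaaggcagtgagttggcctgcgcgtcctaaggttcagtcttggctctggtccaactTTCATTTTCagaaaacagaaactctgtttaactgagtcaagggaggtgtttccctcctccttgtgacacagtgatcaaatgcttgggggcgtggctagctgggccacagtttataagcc
Psmb8: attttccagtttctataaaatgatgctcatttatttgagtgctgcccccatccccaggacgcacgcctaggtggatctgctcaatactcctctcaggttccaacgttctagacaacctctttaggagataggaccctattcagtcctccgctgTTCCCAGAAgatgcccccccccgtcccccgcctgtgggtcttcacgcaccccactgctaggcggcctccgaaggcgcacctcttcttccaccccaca
Cxcl9: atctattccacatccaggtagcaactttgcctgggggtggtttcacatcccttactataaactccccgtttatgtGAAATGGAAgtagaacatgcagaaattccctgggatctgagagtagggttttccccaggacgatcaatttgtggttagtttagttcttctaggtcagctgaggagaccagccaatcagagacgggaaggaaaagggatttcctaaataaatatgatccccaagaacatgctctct
Ifit1: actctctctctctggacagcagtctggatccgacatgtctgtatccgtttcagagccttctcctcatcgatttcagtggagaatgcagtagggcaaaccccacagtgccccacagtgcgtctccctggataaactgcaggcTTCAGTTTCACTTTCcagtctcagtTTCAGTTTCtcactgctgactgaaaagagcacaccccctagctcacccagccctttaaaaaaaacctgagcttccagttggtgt
Ifi44l: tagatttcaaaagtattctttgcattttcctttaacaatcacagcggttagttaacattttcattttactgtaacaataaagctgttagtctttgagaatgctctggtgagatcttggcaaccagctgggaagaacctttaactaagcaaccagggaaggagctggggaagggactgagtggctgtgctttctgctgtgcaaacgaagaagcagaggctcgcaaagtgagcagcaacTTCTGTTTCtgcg

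Counted from the start, the core in Rsad2 began at -119, that in Cxcl9 at -175 and that in Ifi44l at -13. The 3 cores in Ifit1 began at -109, -103 and -84, and the capitals in Psmb8 mark a gamma-activated site at -97. Among the 30 tested members with a promoter, 15 held the core. Of these 15, 8 were called higher at day 5 in untreated tissue, and 7 of the other 15 were. With G6 at day 60 the counts called lower were 12 of 15 with the core and 8 of 15 without it.

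**Figure D1:**
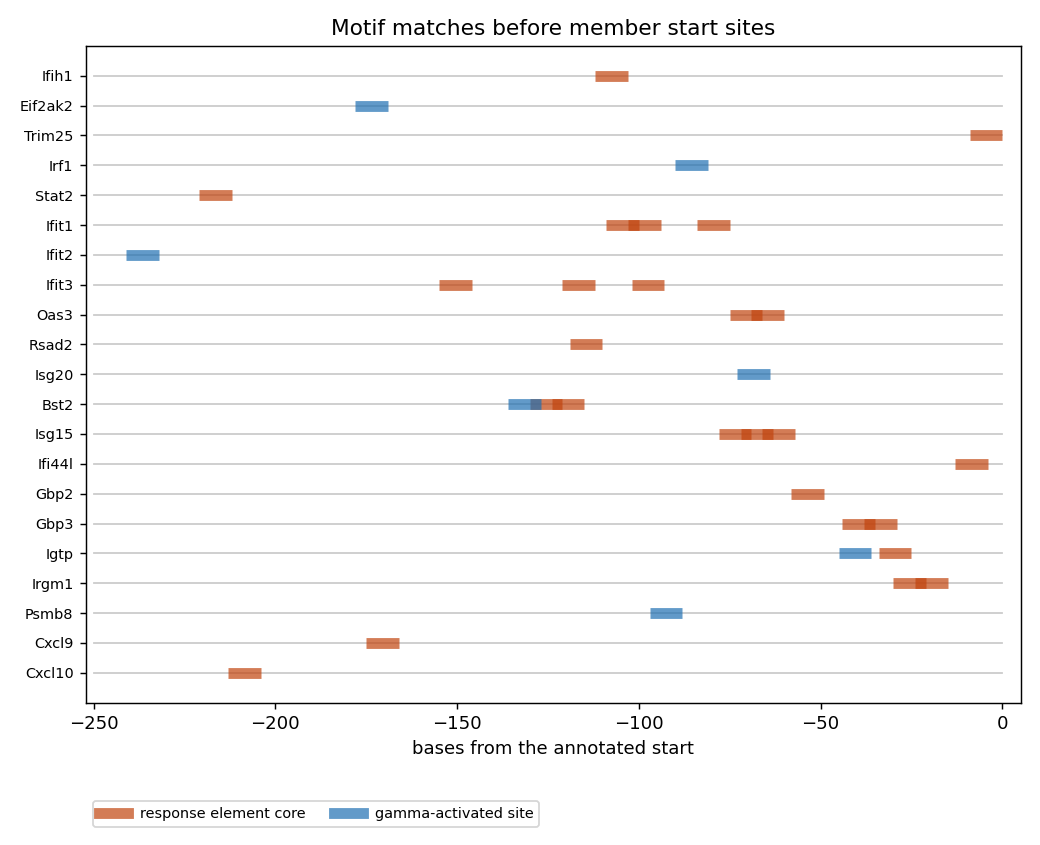
Positions of the response element core (orange) and the gamma-activated site (blue) in the 250 bases before the annotated start (x axis, bases) of each member with a match, in 1 row per promoter. Isg15 and Ifit3 hold 3 cores each, as Ifit1 does; Isg15 has a promoter entry but was not measured here.

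Values below are levels as log2(signal + 16), or differences between group means on that scale, with the standard error (SE) of a limma model over all 10 groups. A gene was called at an adjusted p (Benjamini-Hochberg over 14718 genes) under 0.05. Overlap between groups is described for single genes. It was not counted over all genes, so groups that do not overlap cannot be called unusual here. In bulk tissue, fewer cells of a type and less RNA per cell cannot be told apart. The 11 keratin, collagen, muscle and other genes taken as markers of flank skin passed the filter level on all 78 arrays. Of the T-cell markers, Cd8b1 passed the filter level on 0 of 78 arrays, and Cd3e and Cd3d each on 1. Cd247 passed it on 4, Cd3g on 7 and Cd4 on 10. Cd8a, read from the brightest of 5 probe sets, and Thy1 did on all 78. The median 3' to 5' signal ratio of Actb, a measure of RNA integrity, ran from 1.29 (DC101 day 5) to 2.22 (G6 day 60). Some arrays stood apart in the mean of the 37 members. Control arrays 95 (11.83) and 96 (11.36) were above the other 6 control arrays (10.40 to 11.05). G6 day 60 arrays 85 (10.96) and 88 (11.09) were above the other 6 of that group (9.58 to 10.07), and untreated day 60 array 75 (11.95) was the highest of its group.

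**Figure D2:**
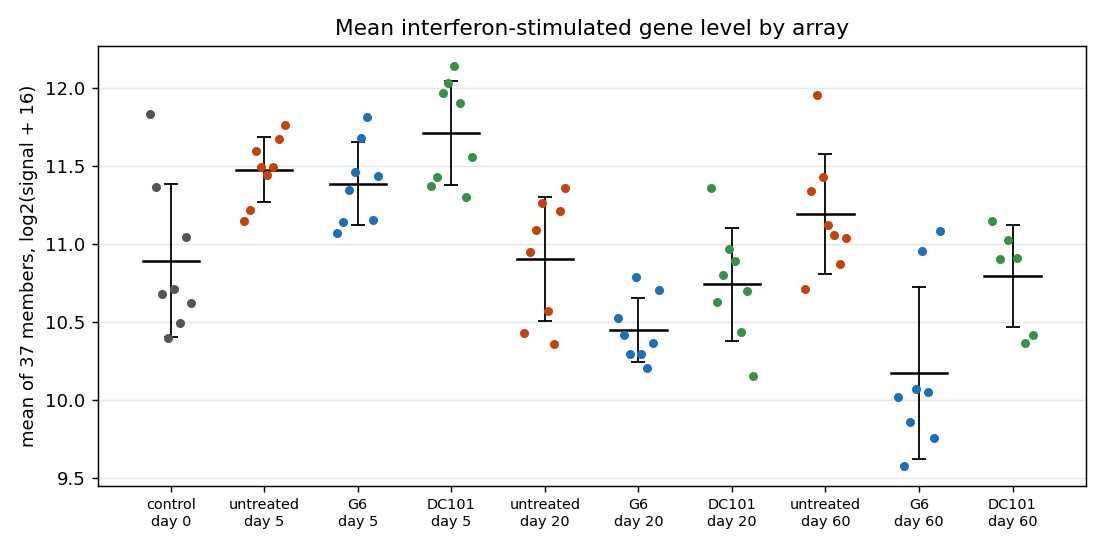
Mean log2(signal + 16) of the 37 tested members (y axis) on each of 78 arrays (points), with the group mean and SD (black line and bar), by group. Control was at 10.89, untreated tissue at 11.48 on day 5, 10.90 on day 20 and 11.19 on day 60, and G6 at day 60 lowest at 10.17.

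The untreated groups were first set against control tissue. All control arrays were of day 0, so virus injection and time cannot be told apart in these differences. At day 5 the chemokines Cxcl9 and Cxcl10, the radical SAM antiviral enzyme Rsad2 (viperin) and 15 other members rose, and none fell. Thus 18 of 37 members (48.6%) were higher, where 27.9% of all genes were called higher and 24.9% lower. The members' median difference was 0.46, against 0.05 over all genes, and 8 of the 18 rose at least 2-fold.

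Rsad2 (probe set 1436058_at) ran from 10.65 over a median of 11.09 to 12.06 in control tissue and from 12.52 over 13.13 to 13.30 in untreated tissue at day 5. All 8 untreated arrays were above all 8 control arrays, a difference of 1.76 (SE 0.29, adjusted p = 4.3e-07), or 3.39-fold. Cxcl10 (1418930_at), a chemokine that attracts CXCR3-bearing T and NK cells, ran from 5.75 over 8.28 to 8.62 in control and from 9.77 over 9.96 to 10.42 at day 5. Its groups did not overlap, and it rose by 2.06 (SE 0.37, adjusted p = 2.78e-06), with 2 of 8 control arrays above the filter level, so the size is uncertain. Its neighbour on the chromosome and in function, Cxcl9 (1418652_at), spread from 6.26 over 9.27 to 10.40 among control arrays and held between 10.37 and 10.76 at day 5, with a median of 10.62. The 2 ranges met at their edge, and Cxcl9 rose by 2.07 (SE 0.63, adjusted p = 0.0039).

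The rises spread over several roles. Antiviral effectors rose in 6 of 12: Rsad2, the GTPase Mx1 (1.28), the RNA-binding Ifit2 (1.15) and the oligoadenylate synthetase family members Oas2 (0.97), Oas3 (0.97) and Oasl1 (0.96). Transcription factors rose in 3 of 4, namely Stat2 (0.78), Irf7 (0.61) and Irf9 (0.46), and Irf1 differed by -0.08 (adjusted p = 0.55). Of 6 sensors 3 rose: Trim25, a ubiquitin ligase that acts on RIG-I (1.26), Eif2ak2, the kinase PKR (0.71), and Ddx58, RIG-I itself (0.36). Tap1, a subunit of the peptide transporter for MHC class I, was the 1 of 3 antigen-processing members that rose (1.02), and Gbp3 was the 1 of 4 GTPases (0.77). Ifi44l (1.32) and Parp14, an ADP-ribosyltransferase (0.48), rose among the 5 other induced genes. Trim25 and Tap1 shared with Rsad2 and Cxcl10 that no untreated array overlapped a control array.

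Members of the same families did not all rise. Ifit1 differed by 0.19 (adjusted p = 0.63) and Ifit3 by 0.18 (adjusted p = 0.66) beside the rise of Ifit2. Usp18, the protease that removes ISG15 and dampens receptor signalling, differed by 0.10 (adjusted p = 0.78). Control arrays 95 and 96 were the 2 highest of their group for the member mean, and without them 22 members rose. With the 3' to 5' ratios of Actb and Gapdh as covariates 13 rose and none fell.

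Upstream and parallel genes were examined from lists made for this pathway. Receptor genes rose in 4 of 6 at day 5, led by Il10rb (1.3, SE 0.15), a chain shared by the interferon lambda and IL-10 receptors, and Ifnar2 (1.03, SE 0.24), a chain of the type I receptor. In the nucleic acid sensing list 9 of 13 rose and 1 fell, led by the endosomal RNA receptor Tlr7 (2.29, SE 0.37) and the myeloid transcription factor Irf8 (1.96, SE 0.24). Kinases and STATs rose in 2 of 4 (Tyk2, 0.47, and Jak2, 0.40), and inhibitors in 2 of 6 (Ptpn6, 0.81, and Irf2, 0.35). Of 29 other interferon-stimulated genes 14 rose and 1 fell, with the DNA sensor Aim2 (2.21, SE 0.28) and Slfn2 (1.52, SE 0.28) in front. Of 15 other interferon gamma-induced genes 7 rose, among them Cxcl11 (1.91, SE 0.42), and 1 fell, the tryptophan-degrading enzyme Ido1 (-1.26, SE 0.43). Over all groups together, Aim2 passed the filter level on 14 arrays and Ido1 on 15. Cxcl11 passed it on at most 48 and Tlr7 on at most 58. The sizes given for Aim2, Ido1, Cxcl11 and Tlr7 may rest on values below that level and are uncertain.

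Most of the interferon genes measured gave little signal. Of 19 ligand genes 10 were measured and 3 passed the filter. Ifnz was above the filter level on all 78 arrays, Ifna1 on 33 and Ifnb1 on 16. Limma called none of these 3 at any day against control. At an unadjusted p under 0.05 in limma, 1 of 3 passed at day 5, 2 at day 20 and 1 at day 60. Ifnb1 ran from 7.76 over 8.33 to 9.04 in control and from 7.79 over 8.16 to 8.46 in untreated tissue at day 5, a difference of -0.28 (adjusted p = 0.17). Ifng reached the filter level on 0 of 78 arrays and was not tested.

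Endothelial and leukocyte markers moved with the members at day 5. Of 12 endothelial markers 11 rose and 1 fell, with a median difference of 2.49, and their summed signal ran from 16539 to 27439 in control and from 83349 to 132483 at day 5. Macrophage markers rose in 14 of 16, and their summed signal ran from 72606 to 223605 in control and from 248372 to 315764 at day 5. NK-cell markers rose in 6 of 8, and 4 of 6 plasmacytoid dendritic cell markers rose. In the latter list Klk1, Tcf4 and Ly6d passed the filter level on all 78 arrays, Siglech on 76, Spib on 40 and Ccr9 on 21. Marker means of other cells also had higher medians than in control: conventional dendritic cells (9.72 and 8.94), T cells (10.08 and 9.16) and neutrophils (9.92 and 8.82). The B-cell medians were 9.04 and 8.92. The part of all these cells in the members' rise was not tested.

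At day 20 Rsad2 and the exonuclease Isg20 were among the members higher than in control tissue. Of 37 members 4 were higher and 2 lower, where 22.7% of all genes were called higher and 18.4% lower, and the median difference was -0.01. The member share in each direction was below that of all genes.

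Isg20 (1419569_a_at) ran from 9.19 over 9.81 to 10.18 in control and from 9.73 over 11.08 to 11.54 in untreated tissue at day 20. The rise was 1.01 (SE 0.27, adjusted p = 0.0014), with overlap at the low end of the untreated day 20 range. Rsad2 ran from 11.04 over 12.61 to 13.48 and rose by 1.06 (SE 0.29, adjusted p = 0.0022). It lay above the control mean in 6 of 8 arrays. Trim25 ran from 11.17 over 11.76 to 12.27 in control and from 11.61 over 12.42 to 12.95 at day 20, and rose by 0.65 (SE 0.15, adjusted p = 0.00021) with overlapping ranges. Irf9, the DNA-binding partner of STAT2, rose by 0.43 (SE 0.15, adjusted p = 0.013). Zbp1, a sensor of Z-form nucleic acid, ran from 9.46 over 9.92 to 12.03 in control and from 8.44 over 9.18 to 9.92 at day 20, and fell by 1.03 (SE 0.31, adjusted p = 0.0053). Ifit1 ran from 10.36 over 11.28 to 12.84 in control and from 9.90 over 10.79 to 11.41 at day 20, and fell by 0.78 (SE 0.31, adjusted p = 0.037). Both genes overlapped between the groups, and the highest control value of each was on array 95. Both falls depended on control arrays 95 and 96: without them Zbp1 differed by -0.54 (adjusted p = 0.15) and Ifit1 by -0.35 (adjusted p = 0.39), neither called, and 8 members were higher and none lower. Of the ligands and receptors, 4 of 6 receptor genes were again higher, as Il10rb (0.98) and Ifnar1 (0.80). In the sensing list 7 of 13 rose and 1 fell, with Ikbke (1.12) and Tlr7 (1.02) first. Tyk2 (0.46) and Jak2 (0.35) rose in the kinase list, and Pias1 (0.21) was the 1 of 6 inhibitors that rose. Other interferon-stimulated genes rose in 5 of 29, as Aim2 (1.31), and 1 fell, Ifi27l2a (-1.63). Over all groups together, Aim2 passed the filter level on 14 arrays, and Ikbke and Tlr7 each on at most 58. The sizes of their rises are uncertain. Macrophage markers rose in 9 of 16 and endothelial markers in 11 of 12.

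At day 60 Isg20, Rsad2 and Tap1 were higher than in control tissue and no member was lower. The 3 of 37 (8.11%) stand beside 18.7% of all genes called higher and 16.9% lower, and the median difference was 0.24. Isg20 ran from 10.15 over 10.79 to 12.41 and rose by 1.29 (SE 0.27, adjusted p = 0.000102), with its lowest array just under the highest control array. Rsad2 ran from 11.15 over 12.23 to 13.78 and rose by 0.97 (SE 0.29, adjusted p = 0.0063). Tap1 ran from 9.59 over 10.36 to 10.60 in control and from 10.55 over 10.70 to 11.37 at day 60, and rose by 0.54 (SE 0.17, adjusted p = 0.0081). The other Tap1 probe sets passed the filter level on at most 1 of 78 arrays and give no second reading. With both RNA ratios as covariates Tap1 was no longer called (0.26, adjusted p = 0.37), while Rsad2 and Isg20 were. Without control arrays 95 and 96, 10 members were higher, and without array 95 alone 5 were. At this day 12 of 16 macrophage markers rose, limma called none of 12 endothelial markers (0 at an unadjusted p under 0.05), and the Actb ratio had a median of 1.88 in untreated and 1.31 in control arrays. Pathway genes past the threshold included Tlr7 (1.31), Mavs (-0.60), Ifnar2 (0.64), Stat3 (-0.65), Pias1 (0.48), Ube2l6 (0.69), Ifitm3 (0.51), Ifi47 (0.58) and Tap2 (-0.48). The size for Tlr7 is uncertain, as it passed the filter level on at most 58 arrays over all groups together.

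**Figure D3:**
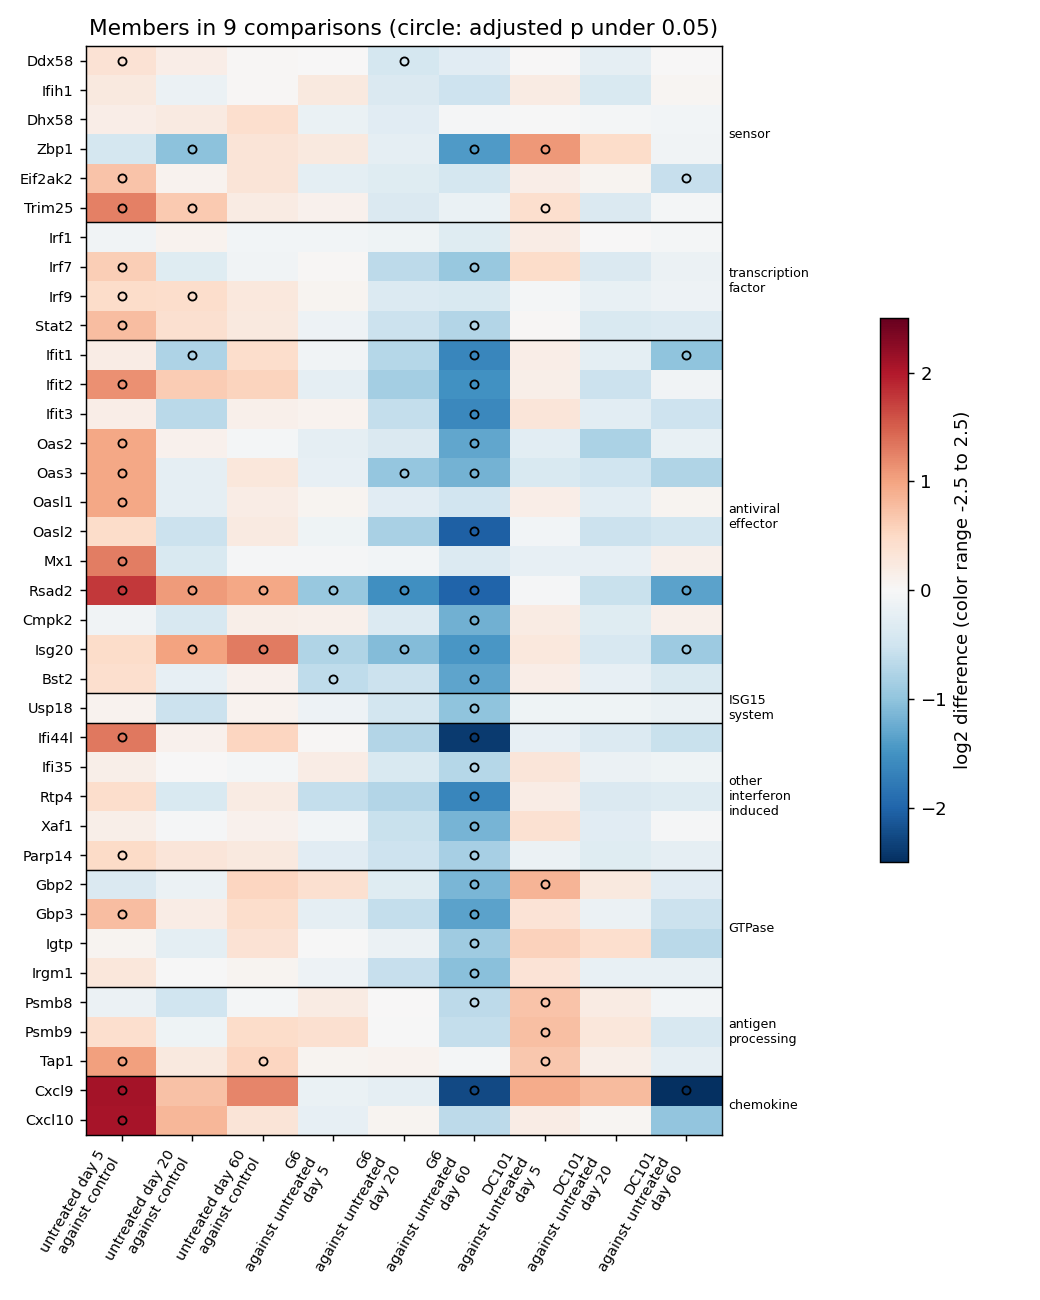
Log2 difference (color) of each of 37 members (rows, by role) in 9 comparisons (columns); circles mark an adjusted p under 0.05. Colors stop at -2.5 and 2.5, which Cxcl9 with DC101 at day 60 (-3.14) passes. Circles fill 18 rows in the first column and 25 in the column of G6 at day 60.

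Untreated tissue was then compared between days, using the arrays that also enter the comparisons above. From day 5 to day 20, 14 members fell and none rose (9.78% of all genes lower, 10.4% higher). Mx1 (1451905_a_at), a dynamin-like GTPase against RNA viruses, ran from 9.87 over 10.08 to 10.44 at day 5 and from 8.07 over 8.52 to 8.80 at day 20. The groups did not overlap, and it fell by 1.65 (SE 0.27, adjusted p = 4.45e-06). Cxcl10 ran from 8.13 over 8.70 to 9.44 at day 20, below every day 5 array, and fell by 1.23 (SE 0.37, adjusted p = 0.012). Among the members called, Irf7, Oasl1 and Tap1 also had groups that did not overlap. Macrophage markers fell in 11 of 16 and endothelial markers in 4 of 12, with 1 higher, and their part was not tested. Rsad2 and Isg20 were not among the 14. The count was 9 without untreated day 20 array 53 and with both RNA ratios in the model 6 fell and 1, Isg20, rose (0.82, adjusted p = 0.024).

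From day 20 to day 60, 4 members rose and 1 fell (11.9% of all genes higher, 13.7% lower). Zbp1 (1429947_a_at) ran from 8.44 over 9.18 to 9.92 at day 20 and from 9.90 over 10.55 to 11.49 at day 60. The rise was 1.34 (SE 0.31, adjusted p = 0.00069), and 1 array at each day lay at the shared edge. Ifit1 ran from 9.90 to 11.41 at day 20 and from 10.95 over 11.83 to 13.03 at day 60, with overlap. It rose by 1.22 (SE 0.31, adjusted p = 0.0020), Ifit3 by 0.80 and Gbp2 by 0.68, while Trim25 fell by 0.45 (SE 0.15, adjusted p = 0.018). Between 2 and 8 members were called as single arrays were left out: 2 without untreated day 20 array 51, 3 without any one of arrays 49, 50, 53, 54, 74, 75 and 76, and 8 without array 73. From day 5 to day 60, 3 members rose and 10 fell (19.7% of all genes higher, 19.6% lower). Gbp2 ran from 10.71 over 11.65 to 11.96 at day 5 and from 11.71 over 12.37 to 13.30 at day 60. Gbp2 rose by 0.89 (SE 0.26, adjusted p = 0.0043) and Isg20 by 0.83 (SE 0.27, adjusted p = 0.0094), and Zbp1 was the other that rose. Macrophage markers fell in 10 of 16 and endothelial markers in 11 of 12 between these days, with 1 endothelial marker higher. Cxcl10 ran from 5.94 over 8.28 to 9.97 at day 60, with its highest array inside the day 5 range of 9.77 to 10.42. Mx1 ran from 7.55 over 8.77 to 9.82 at day 60, below every day 5 array. Of the day 60 arrays, 3 of 8 passed the filter level for Cxcl10, which leaves the size of its fall uncertain. Cxcl10 fell by 1.73 (SE 0.37, adjusted p = 0.000116) and Mx1 by 1.32 (SE 0.27, adjusted p = 5.92e-05).

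Both antibodies were compared with the untreated group of their day, and so share its arrays. With G6 at day 5, Rsad2, Isg20 and the membrane tether Bst2 were lower and no member was higher. These 3 of 37 members (8.11%) stand beside 15% of all genes called lower and 16.7% higher, and the median difference was -0.06. Rsad2 ran from 11.25 over 12.08 to 12.80 with G6, against 12.52 to 13.30 untreated, and fell by 0.94 (SE 0.29, adjusted p = 0.0092). Isg20 ran from 9.06 over 9.46 to 9.67 with G6 and from 9.37 over 10.21 to 10.91 untreated, and fell by 0.74 (SE 0.27, adjusted p = 0.026). Bst2 ran from 10.77 over 11.11 to 11.44 with G6 and from 11.33 over 11.77 to 11.98 untreated, and fell by 0.63 (SE 0.25, adjusted p = 0.048). The ranges of Rsad2 and Bst2 overlapped at their edges. For Isg20 the overlap was wider, with the G6 median (9.46) above the lowest untreated array (9.37). The Bst2 call was lost without filter (adjusted p = 0.057), and also without any one of G6 arrays 9, 10, 11, 12, 15 and 16 or of untreated arrays 2 to 8. In all 1 member was called without untreated array 3 or array 7. Beside this, 11 of 12 endothelial markers were lower with G6 and none of 16 macrophage markers was called in limma (1 of 16 at an unadjusted p under 0.05).

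With G6 at day 20 Rsad2 and Isg20 were again lower. In all 4 of 37 members were lower (10.8%, beside 6.01% of all genes) and none higher (3.97% of all genes), and the median difference was -0.38. Rsad2 ran from 10.47 over 10.80 to 11.27 with G6, against 11.04 to 13.48 untreated, where 2 arrays reached down into the G6 range. It fell by 1.54 (SE 0.29, adjusted p = 0.00028). Isg20 ran from 9.11 over 9.61 to 10.43 and fell by 1.08 (SE 0.27, adjusted p = 0.0053). Oas3, which makes the oligoadenylate messenger that activates RNase L, ran from 6.72 over 7.44 to 8.47 with G6 and from 7.48 over 8.42 to 9.47 untreated. Oas3 passed the filter level on 1 of 8 G6 and 4 of 8 untreated arrays, which leaves the size of its difference uncertain. Oas3 fell by 0.97 (SE 0.31, adjusted p = 0.036), and Ddx58 fell by 0.44 (SE 0.13, adjusted p = 0.016). This count depended on single arrays. It was 8 without G6 array 60 or untreated array 49, 12 without untreated array 54, 2 without G6 array 63 or untreated arrays 52 or 56, and 1 without untreated arrays 51 and 52. With array weights 16 members were called lower. Endothelial markers were lower in 9 of 12.

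With G6 at day 60 most of the members were lower than in untreated tissue of that day. They fell in 25 of 37 (67.6%), beside 9.26% of all genes, and none rose, beside 2.64% of all genes. The median difference was -1.0, against -0.02 over all genes, and 18 members fell at least 2-fold. Ifi44l, the oligoadenylate synthetase-like Oasl2 and Rsad2 were among those that fell most.

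Ifi44l (1425917_at), a GTP-binding-like protein induced by type I interferon, ran from 9.90 over 11.57 to 12.83 untreated and from 7.52 over 8.93 to 11.42 with G6. It fell by 2.39 (SE 0.42, adjusted p = 0.00016), or 5.26-fold, and all 8 G6 arrays were below the untreated mean. Oasl2 (1453196_a_at) ran from 10.47 over 11.76 to 13 untreated and from 7.91 over 9.49 to 11.65 with G6, and fell by 2.04 (SE 0.35, adjusted p = 0.000136). In both genes the overlap came from G6 arrays 85 and 88, which were at 11.42 and 10.90 for Ifi44l and at 11.18 and 11.65 for Oasl2. Cxcl9 ran from 6.21 over 9.84 to 12.62 untreated and from 5.56 over 7.94 to 8.65 with G6, and fell by 2.26 (SE 0.63, adjusted p = 0.011). Only 1 of 8 G6 arrays passed the filter level for Cxcl9, so the size of its fall is uncertain. Its untreated spread was wide, with array 80 at 6.21 inside the G6 range, array 76 at its upper edge and array 77 at 12.62. Isg20 was the only member whose groups did not overlap, from 8.71 over 9.57 to 10.12 with G6 against 10.15 to 12.41 untreated. It fell by 1.46 (SE 0.27, adjusted p = 0.00024), and Rsad2 fell by 2.00 (SE 0.29, adjusted p = 6.81e-06).

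By role, 10 of 12 antiviral effectors fell. Beside Oasl2, Rsad2 and Isg20 these were Ifit1 (-1.63), Ifit3 (-1.61), Ifit2 (-1.52), Bst2 (-1.32), Oas2 (-1.29), the nucleotide kinase Cmpk2 (-1.21) and Oas3 (-1.18). All 4 GTPases fell, Gbp3 (-1.34), Gbp2 (-1.15), Irgm1 (-1.05) and Igtp (-0.90), and so did all 5 other induced genes and Usp18 (-1.0). Of the transcription factors Irf7 (-0.95) and Stat2 (-0.72) fell. The RNA sensors Ddx58 (-0.28, adjusted p = 0.14), Ifih1 (-0.51, adjusted p = 0.083) and Dhx58 (-0.02, adjusted p = 0.95) were not called, and Zbp1 was the 1 of 6 sensors that fell (-1.41). In antigen processing Psmb8, an immunoproteasome subunit, fell (-0.65), and Tap1 differed by -0.04 (adjusted p = 0.91). Mx1 (-0.34, adjusted p = 0.44) and Cxcl10 (-0.66, adjusted p = 0.25) were not called.

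Genes beyond the members fell with them. Of 29 other interferon-stimulated genes 20 fell and none rose, as Lgals3bp (-1.44), the ISG15-conjugating enzyme Ube2l6 (-1.24) and Trim30a (-1.22). Of 15 other interferon gamma-induced genes 8 fell, as Gbp6 (-1.62) and Irgm2 (-1.36). In the receptor list Ifnar1 fell (-0.35), in the sensing list Irf8 (-0.93) and among inhibitors Irf2 (-0.43), and no kinase or STAT of the list was called. Several other measures moved at the same time. Macrophage markers fell in 11 of 16, with a summed signal from 66358 to 246888 with G6 and from 130116 to 298244 untreated. The endothelial marker mean had a median of 9.60 with G6 and 10.23 untreated, and the NK-cell marker mean 8.02 and 8.68. T-cell, B-cell and conventional dendritic cell marker means also had lower medians with G6. Medians were higher with G6 for neutrophil (10.10 and 9.33) and plasmacytoid dendritic cell markers (10.63 and 10.52). The part of these cells was not tested. For Actb the 3' to 5' ratio had a median of 2.22 under G6 (1.81 to 3.03) and 1.88 without (1.58 to 2.57).

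With both RNA ratios (Actb and Gapdh) as covariates the count went from 25 to 4, namely Ifi44l (-2.49), Rsad2 (-1.51), Oasl2 (-1.61) and Gbp3 (-1.35). The count over all genes went from 1751 to 27 in that fit, and the members' median was -0.87. At an unadjusted p under 0.05 in the same limma fit, 30 of 37 members were lower and 0 higher. Without G6 arrays 85 and 88, 31 members fell, and leaving out single arrays gave 23 to 28. With only the 2 groups in the model 12 members were called.

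**Figure D4:**
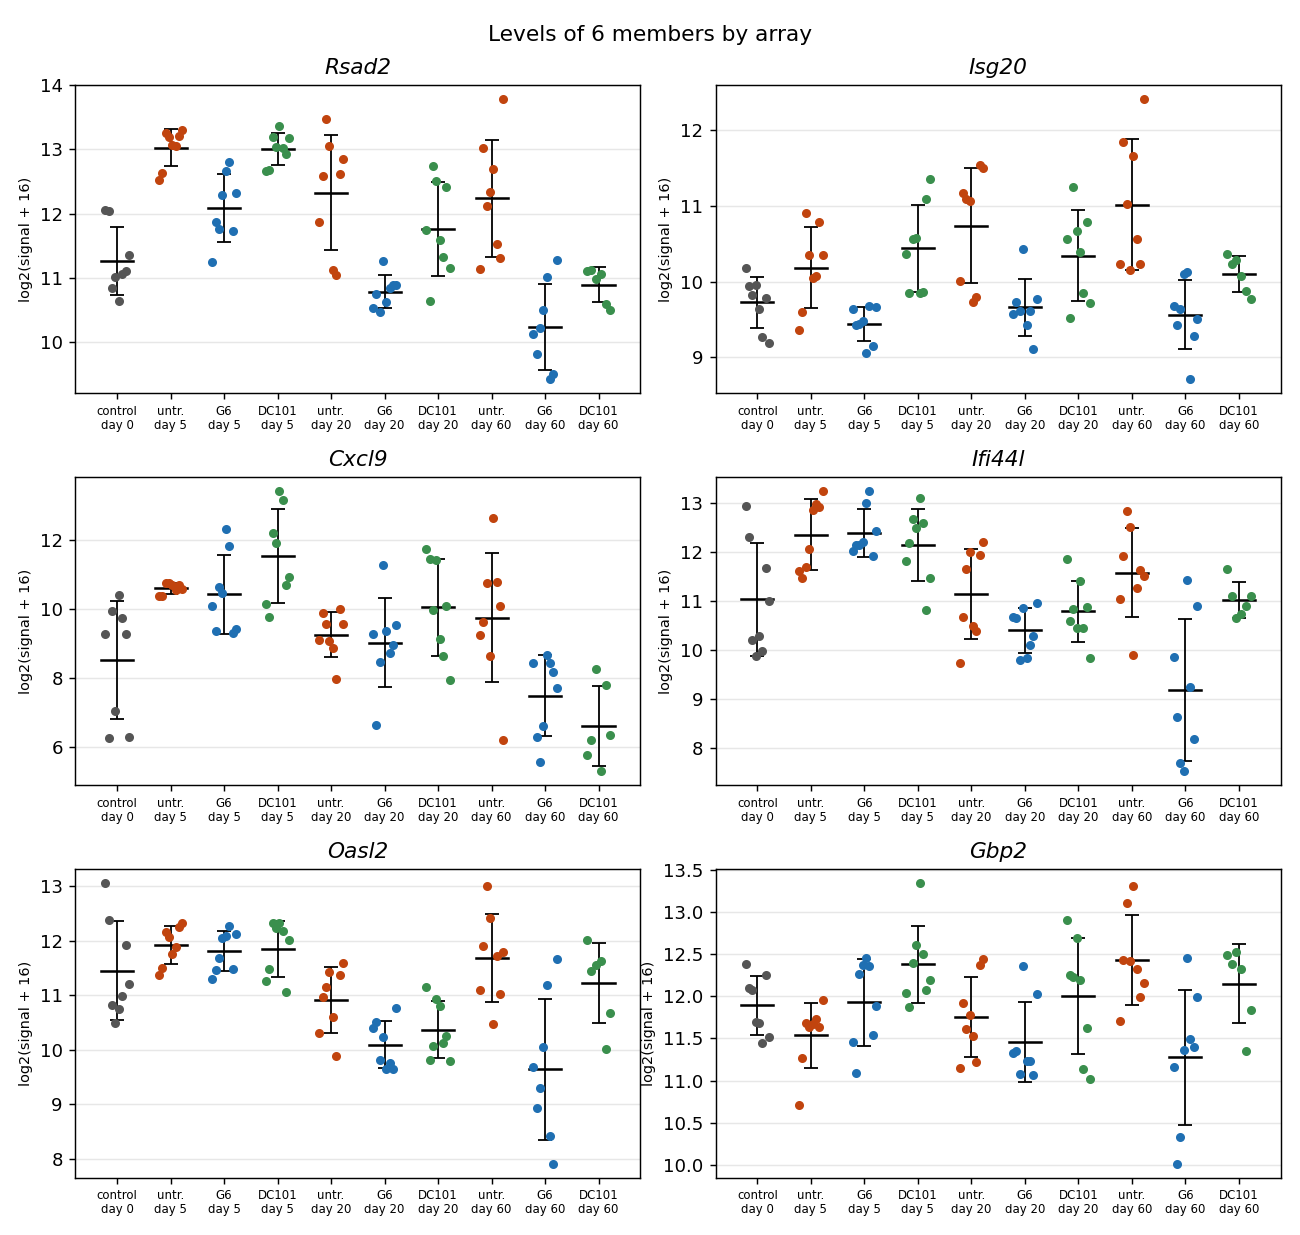
Levels as log2(signal + 16) (y axes) of 6 members on each array (points), with group mean and SD, in the 10 groups. Rsad2 and Isg20 are lower with G6 (blue) than in untreated tissue (orange) at each day. Ifi44l and Oasl2 have a lower mean with G6 at day 60, with overlapping ranges, and Cxcl9 is low with both antibodies at day 60.

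The change of the G6 effect between days was tested directly. Limma called no member between days 20 and 5 (5 of 37 at an unadjusted p under 0.05; 9.17% of all genes called) or between days 60 and 20 (14 of 37; 0.0747% of all genes). Between days 60 and 5, a contrast added after the results were seen, the effect was more negative at day 60 for 18 of 37 members and more positive for none (24% of all genes called in either direction). Ifi44l changed by -2.43 between these effects (SE 0.59, adjusted p = 0.0016) and Oasl2 by -1.93 (SE 0.49, adjusted p = 0.0025). For Rsad2, lower with G6 at each day, the change was -1.06 (adjusted p = 0.0495), and for Isg20 it was -0.71 (adjusted p = 0.17). The count was 11 without untreated day 60 array 75, 11 without G6 day 5 arrays 13 and 14, 6 with the RNA ratios as covariates, and 28 without G6 day 60 arrays 85 and 88.

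With DC101 at day 5 the direction was the other one: 6 of 37 members (16.2%) were higher than in untreated tissue, beside 4.66% of all genes, and none lower, beside 7.11%. They were the 3 antigen-processing genes Tap1, Psmb9 and Psmb8, the GTPase Gbp2 and the sensors Zbp1 and Trim25, and no antiviral effector was among them. Zbp1 ran from 9.14 over 9.87 to 10.45 untreated and from 10.04 over 10.95 to 11.57 with DC101, and rose by 1.08 (SE 0.31, adjusted p = 0.014). Gbp2 (1418240_at), a guanylate-binding protein strongly induced by interferon gamma, ran from 10.71 over 11.65 to 11.96 untreated and from 11.87 over 12.30 to 13.34 with DC101, and rose by 0.84 (SE 0.26, adjusted p = 0.024). Psmb9, an immunoproteasome subunit, ran from 11.13 over 11.44 to 11.72 untreated and from 11.29 over 12.26 to 13.03 with DC101, and rose by 0.75 (SE 0.24, adjusted p = 0.031). The groups overlapped in each of these genes, and for Psmb9 the lowest DC101 array (11.29) lay below the untreated median (11.44). Psmb8 rose by 0.72, Tap1 by 0.67 and Trim25 by 0.43, while Rsad2 differed by -0.02 (adjusted p = 0.98) and Cxcl9 by 0.93 (adjusted p = 0.36).

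These calls varied with the probe set and the arrays used. Another Zbp1 probe set (1419604_at) differed by 0.25 (adjusted p = 0.80), 3 members were called without any one of DC101 arrays 19, 20 and 21, and none with adjacent arrays averaged. Macrophage markers were called in 1 of 16 and NK-cell markers in none of 8 by limma (0 of 8 at an unadjusted p under 0.05). The median Actb ratio was 1.29 with DC101 and 1.62 untreated.

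With DC101 at day 20 limma called no member (2 of 37 at an unadjusted p under 0.05, both lower), where 2.44% of all genes were called higher and 5.25% lower. The median difference was -0.22 and the range -0.79 to 0.79. Rsad2 ran from 10.65 over 11.67 to 12.74 and differed from untreated tissue by -0.56 (SE 0.29, adjusted p = 0.23). Single-array omissions gave 0 to 2 calls: 1 without array 65 or 53 and 2 without array 54. Endothelial markers were lower in 7 of 12.

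With DC101 at day 60, Cxcl9, Rsad2, Ifit1, Isg20 and Eif2ak2 were lower and no member was higher. These 5 of 37 (13.5%) stand beside 6.91% of all genes called lower and 4.65% higher, and the median difference was -0.22. Cxcl9 ran from 5.29 over 6.26 to 8.25 with DC101, where all 6 arrays were below the filter level, against 6.21 to 12.62 untreated. It fell by 3.14 (SE 0.68, adjusted p = 0.0013) in the model, and against the filter level it was at least 2.46-fold lower. Rsad2 ran from 10.51 over 11.03 to 11.12, below every untreated array, and fell by 1.34 (SE 0.31, adjusted p = 0.0029). Ifit1 ran from 9.92 over 11.11 to 11.58 with DC101 and from 10.95 over 11.83 to 13.03 untreated, and fell by 1.0 (SE 0.33, adjusted p = 0.038). Isg20 fell by 0.91 and Eif2ak2 by 0.57, the latter with no overlap. Ifi44l (-0.56, adjusted p = 0.44) and Usp18 (-0.17, adjusted p = 0.73) were not called. The count was 3 without DC101 array 91 or untreated array 75 and 2 without DC101 array 94 or untreated array 74. With the RNA ratios as covariates Rsad2 and Isg20 remained called. Macrophage markers rose in 2 of 16 and none fell.

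The DC101 effect was tested between days in the same way. From day 5 to day 20 it fell for Trim25 alone (-0.78, SE 0.21, adjusted p = 0.028; 1.81% of all genes called). Between days 60 and 20, 2 members were more negative at day 60 (18.2% of all genes called), Igtp and Cxcl9, and Cxcl9 changed by -3.93 (SE 0.92, adjusted p = 0.0018). Between days 60 and 5, added after the results were seen, 3 members were more negative (3.28% of all genes called), namely Igtp (-1.26), Cxcl9 (-4.06, SE 0.92, adjusted p = 0.0072) and Tap1 (-0.90, SE 0.25, adjusted p = 0.027). The size of the Cxcl9 values rests on DC101 day 60 arrays that were all below the filter level. The count between days 60 and 5 was 1 without arrays 21, 22 or 92 and 5 without array 73. The Trim25 call was lost without untreated day 20 array 51 or 52, and 1 member remained between days 60 and 20 without array 68 or 77.

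The antibodies were set against each other at matched days, in 15 comparisons over the study of which these are 3, with their labelled doses differing. At day 5, 4 of 37 members were lower with G6 than with DC101 and none higher (5.65% of all genes lower, 5.82% higher). Isg20 ran from 9.06 to 9.67 with G6 and from 9.85 over 10.47 to 11.35 with DC101, with no overlap, a difference of -1.0 (SE 0.27, adjusted p = 0.0075). Rsad2 differed by -0.92 (SE 0.29, adjusted p = 0.026), and Bst2 and Tap1 were the other 2. Without DC101 array 21 the count was 2. At day 20 limma called no member (6 of 37 at an unadjusted p under 0.05, all lower with G6), where 0.136% of all genes were higher and 0.109% lower, and 1 without array 66. At day 60, 19 of 37 members (51.4%) were lower with G6 and none higher, beside 21.9% and 18.6% of all genes. Ifi44l ran from 10.64 over 10.99 to 11.64 with DC101 and differed by -1.84 (SE 0.45, adjusted p = 0.00087). Oasl2 ran from 10.01 over 11.50 to 12.01 with DC101 and differed by -1.58 (SE 0.37, adjusted p = 0.00057). G6 arrays 85 and 88 lay within the DC101 range in both. Macrophage markers were lower with G6 in 13 of 16, and their part was not tested. Rsad2, Isg20 and Cxcl9, which were lower with both antibodies against untreated tissue, were not among the 19. With both RNA ratios (Actb and Gapdh) as covariates limma called 0 of 37 members and 0 of 14718 genes (3 members at an unadjusted p under 0.05, all lower). In that model the members' median was -0.37, against -0.59 without covariates, and Ifi44l differed by -2.08 (adjusted p = 0.17) and Oasl2 by -0.83 (adjusted p = 0.56). The Actb ratio did not overlap between these groups (1.17 to 1.56 with DC101, 1.81 to 3.03 with G6).

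**Figure D5:**
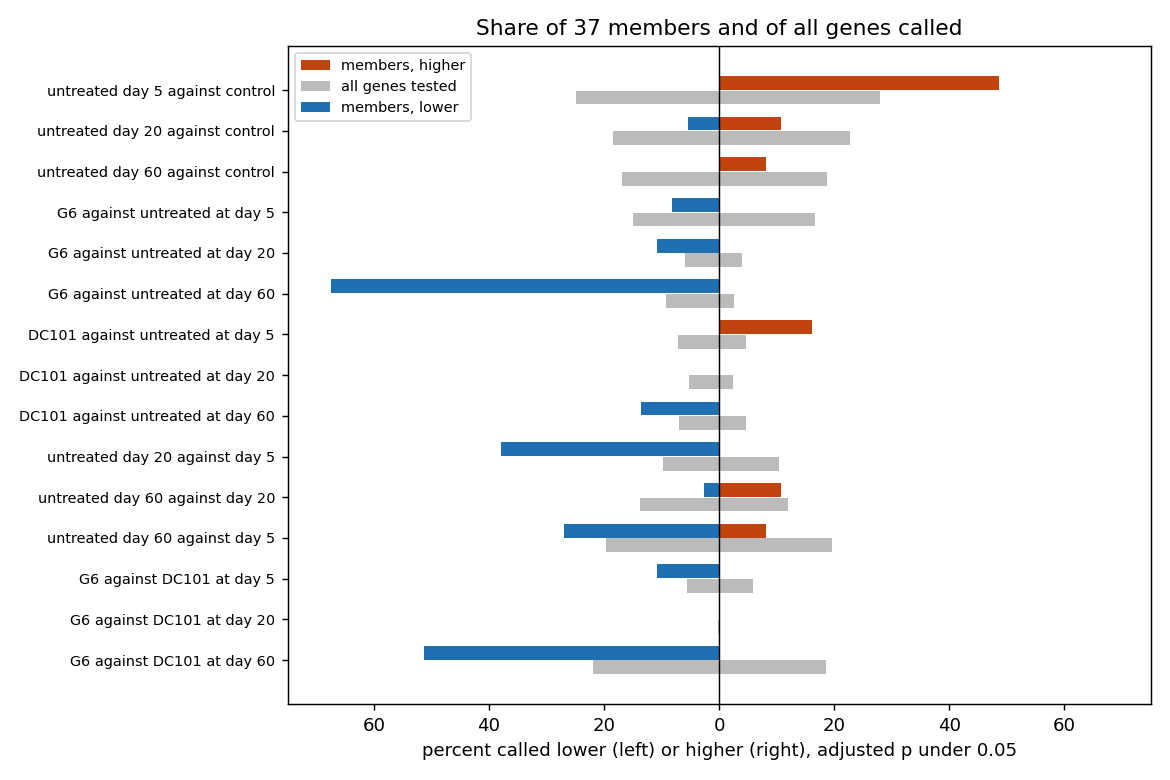
Percent of the 37 members (colored bars) and of all 14718 genes (grey bars) called higher (right) or lower (left) in each of 15 comparisons (rows). The members' share stands at 67.6% lower with G6 at day 60 and at 48.6% higher in untreated tissue at day 5.

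Members also varied together among arrays of one group. Over deviations from the group mean on 78 arrays, the median correlation between 2 members was 0.53, and 98.9% of 666 pairs were above 0; arrays share scaling and RNA quality, so these are descriptions. Parp14 (0.89) and Oasl2 (0.88) followed the mean of the other members most closely. Dhx58 (0.27), Cxcl9 (0.29), Tap1 (0.34) and Isg20 (0.37) followed it least. Outside every list, the genes with deviations most like the member mean were Rnf213 (r = 0.90), Oas1a (0.88), Ly86 (0.87), Gm4951 (0.87), Phf11d (0.86), H2-M3 (0.85), Ncf1 (0.84) and Samd9l (0.82). Without arrays 95 and 88, the 2 farthest from the median, these values ran from 0.79 (Samd9l) to 0.88 (Rnf213). With G6 at day 60 Oas1a differed by -1.24, Ly86 by -1.33 and Rnf213 by -0.91.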

How the data were processed

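RNA from 78 flank samples was measured on 1 array each. The authors deposited MAS5 signal intensity per probe set, and the submitters' processing notes name MAS5 and GCOS 1.3. The trimmed mean of the middle 96% of signals was 1500.01 on every array, so arrays were already scaled, and array medians ran from 454.85 to 582.58. Of 45101 probe sets, 34958 carried 1 gene symbol, 932 several and 9211 were unlisted. A gene was kept when its signal passed the 40th percentile on at least 6 arrays, which left 14718 genes. Log2(signal + 16) was fitted with limma 3.58.1 (R 4.3.3) over 10 groups with a mean-dependent prior, and p-values were adjusted by Benjamini-Hochberg over all genes, at 0.05. The number of arrays limits the precision.

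The script was tested on simulated data. The members, the pathway and marker lists and the comparisons were chosen with earlier results of these data known. Full values are given for the 3 largest called rises and falls in comparisons with control or untreated tissue, and for the 2 largest in the others. From each pathway list the 2 largest called changes against control are named, with Ifnb1 and Ifng. The 8 genes outside the lists correlate best with the member mean. Other genes were named after their values were seen. Alternatives were the pseudocount, filter, quantile normalization, probe-set choice, array weights, adjacent arrays averaged, the 3' to 5' ratios as covariates, only the groups compared, and leaving out arrays.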

Additional observations from a re-analysis of the deposited data

Results flagged for a closer look

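Among 160 sets of values examined (15 members and the member mean, each in 10 groups), 3 held an array far from the others, where chance gives about 1 in 20. Cxcl10 was at 5.70 on G6 day 60 array 82, against 7.37 to 8.71 on the others of its group. It was at 5.75 on control array 98, against 7.72 to 8.62 on the other control arrays. Mx1 was at 10.22 on G6 day 60 array 88, against 7.82 to 8.48.

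Some antibody effects differed between days in limma, with adjusted p-values over all genes. The DC101 effect on Trim25 differed by -0.78 between days 20 and 5 (adjusted p = 0.028), and that on Cxcl9 by -3.93 between days 60 and 20 (adjusted p = 0.0018), a size that rests on values below the filter level. The contrasts of day 60 with day 5 were added after the values were seen. There the DC101 effect differed by -0.90 for Tap1 (adjusted p = 0.027) and by -4.06 for Cxcl9 (adjusted p = 0.0072). The G6 effect differed by -1.66 for Zbp1, -1.55 for Ifit1, -1.93 for Oasl2, -1.06 for Rsad2, -2.43 for Ifi44l, -1.54 for Gbp2 and -0.99 for Psmb9 (adjusted p from 0.0013 to 0.0495).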

How the results depend on the processing

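Counts of members called kept within 1.5 times in 172 of 221 other settings and 383 of 424 omissions of single arrays. The members' median was computed in 157 other settings and 236 omissions. In all of them it moved by less than the SD of the member mean among arrays of the first group. That bound is wide, as the SD ran from 0.21 to 0.55. Some medians were smaller, as 0.24 for untreated day 60 against control (SD 0.38), so it does not show that their sign held. Where counts moved, the cause was not tested. With the 3' to 5' ratios as covariates they became 4 (from 25) for G6 and 2 (from 5) for DC101 at day 60, 0 (from 19) for G6 against DC101 at day 60, 7 (from 14 lower; 6 lower and 1 higher) for untreated day 20 against day 5, and 8 (from 13) for day 60 against day 5. Averaging adjacent arrays gave 1, 2, 0 and 2 for G6 at days 5 and 20 and DC101 at days 5 and 60, 1 for G6 against DC101 at day 5, and 9, 2 and 8 for untreated day 20 against 5, 60 against 20 and 60 against 5. Fitting only the groups compared gave 5, 2 and 12 for G6 at days 5, 20 and 60, 3 for DC101 at day 60, 11 for G6 against DC101 at day 60 and 2 for untreated day 60 against 20. Array weights gave 16 for G6 at day 20, 1 for DC101 at day 20, and 2 and 29 for G6 against DC101 at days 20 and 60. Averaging all probe sets per gene gave 3 and 2 for DC101 at days 5 and 20 and 7 for G6 against DC101 at day 5, and a pseudocount of 64 gave 1 for DC101 at day 20.

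Leaving out arrays that stood apart (95 and 96, 75, and 85 and 88 were chosen after seeing the data) gave 10 for untreated day 60 against control without arrays 95 and 96. Without array 75, DC101 at day 60 gave 3 and untreated day 60 against 20 gave 3. Without arrays 51 and 52, G6 at day 20 gave 1 and untreated day 60 against 20 gave 2. For effects between days, DC101 day 20 minus 5 (1) gave 0 with adjacent arrays, with mean probe sets and without arrays 51 and 52, and 2 with weights. DC101 day 60 minus 20 (2) gave 1 with ratios, with adjacent arrays and without arrays 77 and 79. DC101 day 60 minus 5 (3) gave 0, 6 and 1 with adjacent arrays, weights and without arrays 77 and 79. G6 day 20 minus 5 (0) gave 4 with weights, and G6 day 60 minus 20 (0) gave 6 without arrays 85 and 88. G6 day 60 minus 5 (18) gave 6, 9, 11, 28 and 11 with ratios, with adjacent arrays, and without arrays 13 and 14, 85 and 88, and 75.

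Leaving out single arrays gave ranges of 17 to 19, 5 to 8 and 3 to 5 for untreated days 5, 20 and 60 against control, 9 to 17 for day 20 against 5, 2 to 8 for day 60 against 20 and 9 to 13 for day 60 against 5. They were 1 to 3, 2 to 12 and 23 to 28 for G6 at days 5, 20 and 60, 3 to 6, 0 to 2 and 2 to 5 for DC101, and 2 to 5, 0 to 1 and 17 to 25 for G6 against DC101. For effects between days they were 0 to 1, 1 to 3 and 1 to 5 for DC101 (day 20 minus 5, 60 minus 20, 60 minus 5) and 0 to 1, 0 to 0 and 11 to 22 for G6. Tap1 in untreated day 60 against control had the opposite sign on 2 other probe sets, at -0.28 and -0.17, which passed the filter level on 0 and 1 of 78 arrays and so say nothing of its direction. Named members lost their call in 38 of 417 other settings and 53 of 614 single omissions. Read from another probe set of the same gene, they kept their call in 23 of 33 cases. The call was lost in 8 cases, and the sign was opposite in 2, the Tap1 readings above. No paired analysis was possible because the array numbers are unique and no group shares them with another. Probe sets near the filter level, such as Cxcl9 at day 60, are limited by signal over background.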
